A study of Mus musculus with 12 samples.

Results

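Mitochondrial ribosomal proteins are encoded by nuclear genes whose symbols begin with Mrpl (large subunit) or Mrps (small subunit). Every gene with such a symbol followed by a digit was taken from the array annotation, on probe sets that carry 1 gene symbol. This gave 77 genes, 48 Mrpl and 29 Mrps, of 19938 genes measured. They sit on 85 probe sets, and 8 genes that have several are represented by their brightest probe set, averaged over the 12 arrays. This choice of probe set used no group difference, but the family itself was chosen with earlier results of these data known. Mrpl53 is measured only on a probe set shared with Ccdc142 and is not among the 77.

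The mitochondrial ribosome is assembled from RNAs encoded by mitochondrial DNA and from these imported proteins. It translates the few proteins that mitochondrial DNA encodes, which are all core subunits of the respiratory chain and ATP synthase. Some of its proteins have bacterial counterparts and the others are specific to mitochondria. In hepatocytes, which are rich in mitochondria, its genes are expressed constitutively as part of the nuclear programme for oxidative phosphorylation.

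Liver RNA of male mice was measured on 12 whole-transcript arrays, 1 array for each liver, in 3 groups of 4. The first group was untreated wild-type (WT) C57Bl6/J mice. The second was WT C57Bl6/J mice given lipopolysaccharide (LPS), the bacterial cell wall component that activates NF-kB through the innate immune system, at 1 µg/kg. The third was mice with the S534A substitution in the p65 subunit of NF-kB (gene Rela), given the same dose. The substitution replaces a serine that is phosphorylated during NF-kB activation. It is a knock-in carried by all cells, made by gene targeting in PTL1 stem cells, backcrossed to C57Bl6/J and bred to homozygosity. The stem cell clone of origin, the age of the mice and the time between LPS and collection were not stated. As no untreated S534A liver was analysed here, a baseline genotype difference and an altered response to LPS cannot be told apart. Titles of untreated and LPS arrays follow different schemes, so a run batch, if there was one, and the treatment cannot be told apart either. Replicates are numbered within each group by their labels.

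The liver label held on every array, with 9 measured hepatocyte markers averaging 13.41 to 13.55 in log2 units. Exocrine pancreas markers (10 of 12 listed were measured) averaged 8.73 on WT LPS replicate 2, 6.85 on WT LPS replicate 3 and 9.70 on S534A LPS replicate 3, against 5.81 to 6.33 on the other arrays. Neutrophil markers (11 measured) averaged 5.47 to 5.60 in untreated, 6.58 to 6.85 in WT LPS and 6.96 to 7.27 in S534A LPS livers. Kupffer cell markers (7 measured) averaged 8.98 to 9.35, 8.50 to 9.11 and 8.77 to 9.03, and sinusoidal endothelial markers (7 measured) 9.25 to 9.46, 8.62 to 9.03 and 8.65 to 8.85, in the same order. In both of these lists limma called 4 of 7 markers lower and 1 higher in WT LPS than in untreated livers. Of all genes, 15.6% were lower and 9.34% higher. The averages therefore do not describe every marker. Untreated livers 1 and 3 had high Arntl (9.03 and 9.08) and low Dbp (8.14 and 7.59), both genes of the circadian clock, while untreated livers 2 and 4 had low Arntl (6.29 and 6.20) and high Dbp (11.19 and 11.39). Arntl was 8.83 in WT LPS replicate 1, 7.37 to 7.52 in the other WT LPS livers and 7.42 to 8.61 in S534A LPS livers. Dbp was 8.80 to 9.47 in WT LPS and 8.36 to 9.39 in S534A LPS livers. Whether clock phase differed between treated and untreated livers was not tested. The part of these differences in the results below was not tested beyond the values given beside them. In whole liver, fewer cells of a type and less RNA per cell cannot be told apart.

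After LPS, transcripts of many mitochondrial ribosomal protein genes were lower in WT liver, by modest amounts. Of the 77 genes, 30 fell, 1 (Mrpl30) rose and 46 were not called by limma at an adjusted p under 0.05. That is 39% of the genes falling, where 15.6% of all genes tested fell and 9.34% rose. The median difference, WT LPS minus WT untreated, was -0.17 in log2 units over the 77 genes and 0.02 over all genes, and 62 of the 77 differences were below 0. Among the 30 that fell, the decrease ran from 1.13-fold to 1.95-fold with a median of 1.32-fold, and no more than 2 genes, Mrpl42 and Mrpl49, fell by at least 1.5-fold. All 4 WT LPS arrays lay below all 4 untreated arrays for 29 genes, against a background of 14.9% of all genes. With genes below the 40th percentile of mean level left out, which removed Mrps36, 29 of 76 fell where 25.2% of the 11963 genes kept fell.

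**Figure D1:**
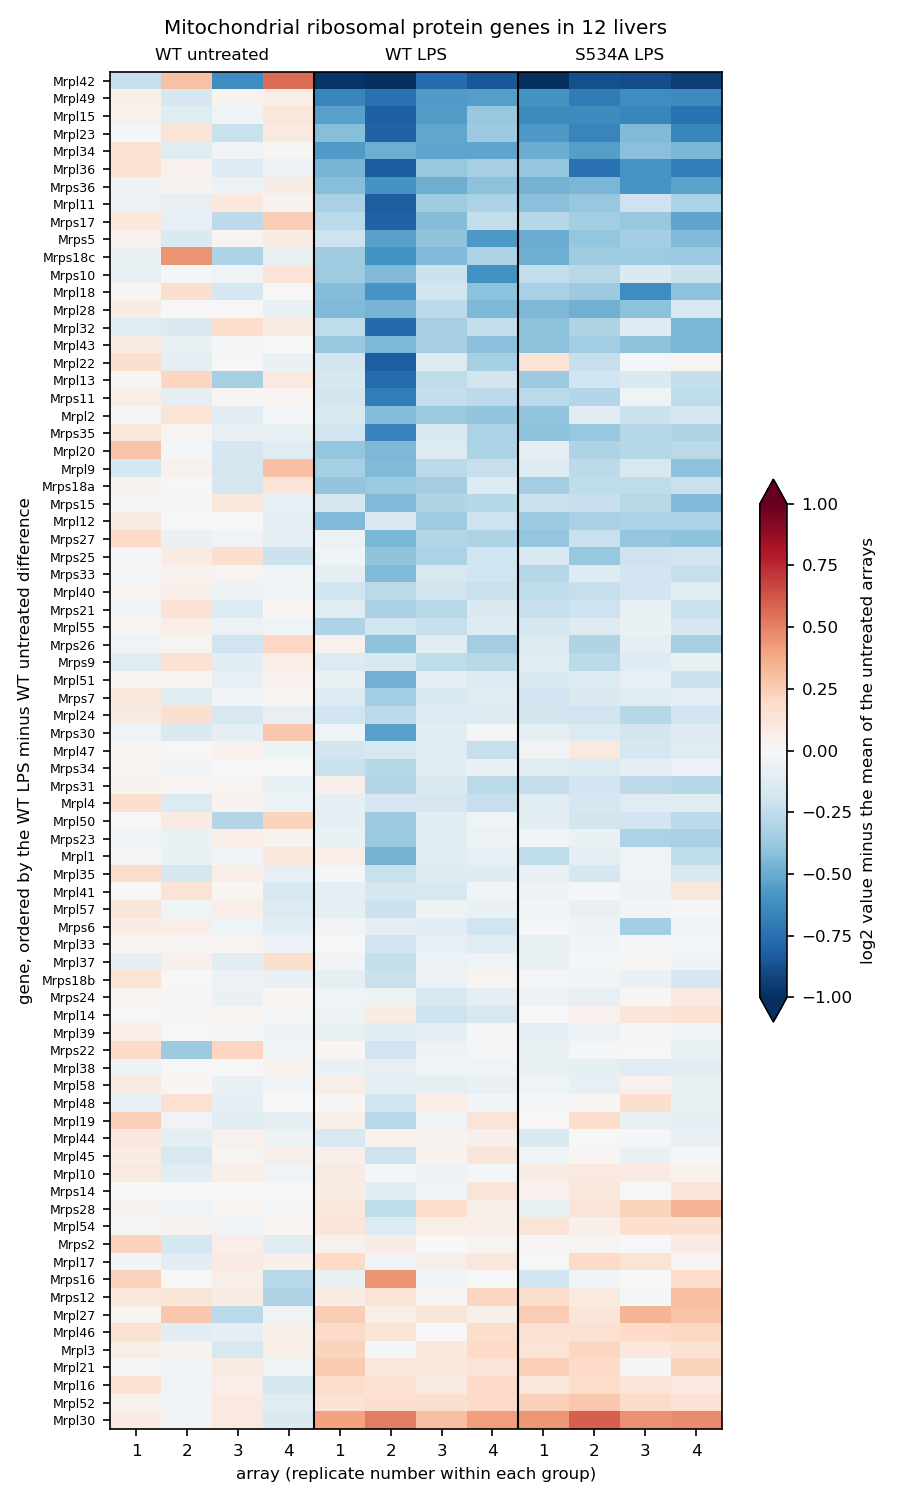
Heat map of the 77 genes (rows, ordered by the WT LPS minus WT untreated difference) on the 12 arrays (columns, 4 per group). Colour gives each log2 value minus the mean of the 4 untreated arrays, with blue lower and red higher. Most rows are blue in both LPS groups, the bottom row (Mrpl30) is red in both, and WT LPS replicate 2 is the darkest blue column.

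Mrpl42, a mitochondria-specific large subunit protein, had the largest fall and the most variable level of all 77. Its log2 values were 7.70, 8.22, 7.30 and 8.48 in untreated livers, 6.94, 6.68, 7.15 and 7.08 in WT LPS livers and 6.93, 7.05, 7.04 and 6.98 in S534A LPS livers. All LPS arrays lay below the lowest untreated array, and the untreated arrays spread over more than the LPS arrays did. The mean was 7.92 ± 0.53 (SD, n = 4) untreated and 6.96 ± 0.21 after LPS in WT, a difference of -0.96 ± 0.20 (SE) with a limma adjusted p of 0.00358. The higher untreated values, in livers 2 and 4, came from the livers with low Arntl and high Dbp. Without livers 2 and 4 the Mrpl42 difference was -0.54 (limma adjusted p = 0.0153), and without livers 1 and 3 it was -1.38 (limma adjusted p = 1.6e-05). Its size therefore differed by more than 1.5 times with the untreated livers used, while the fall was called either way.

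Mrpl49, a large subunit protein also without a bacterial counterpart, had the smallest p of the 77. Untreated livers gave 9.89, 9.66, 9.87 and 9.90, WT LPS livers 9.17, 9.09, 9.26 and 9.28, and S534A LPS livers 9.24, 9.13, 9.21 and 9.19. The groups with and without LPS were apart by more than their own spread. The mean went from 9.83 ± 0.11 to 9.20 ± 0.09 (SD, n = 4 each) in WT, a difference of -0.63 ± 0.07 (limma adjusted p = 2.29e-05).

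The promoters of these 2 genes, and of Mrpl43, Mrps11 and Mrpl30 described below, are shown because these genes carry the largest changes or start close to a neighbour whose change is known. Each runs from 250 bases before the transcript start to 50 after it, 5′ to 3′ on the gene's strand, from RefSeq on GRCm38.p6. Capitals mark a match, on either strand, to the YY1 core AAGATGGC or the ETS/GABP core CCGGAAGT.
Mrpl42: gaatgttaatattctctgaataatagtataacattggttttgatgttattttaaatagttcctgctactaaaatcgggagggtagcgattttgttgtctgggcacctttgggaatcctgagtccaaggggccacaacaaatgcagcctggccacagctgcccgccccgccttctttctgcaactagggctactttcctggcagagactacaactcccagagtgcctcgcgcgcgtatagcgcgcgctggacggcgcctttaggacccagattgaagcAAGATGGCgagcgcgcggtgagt
Mrpl49: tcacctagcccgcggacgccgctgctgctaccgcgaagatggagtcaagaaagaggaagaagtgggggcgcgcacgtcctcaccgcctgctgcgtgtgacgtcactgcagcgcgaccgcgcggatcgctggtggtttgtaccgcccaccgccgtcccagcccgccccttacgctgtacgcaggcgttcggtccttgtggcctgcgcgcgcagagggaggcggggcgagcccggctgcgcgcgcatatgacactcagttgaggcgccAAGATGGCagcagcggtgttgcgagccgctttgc
Mrpl43: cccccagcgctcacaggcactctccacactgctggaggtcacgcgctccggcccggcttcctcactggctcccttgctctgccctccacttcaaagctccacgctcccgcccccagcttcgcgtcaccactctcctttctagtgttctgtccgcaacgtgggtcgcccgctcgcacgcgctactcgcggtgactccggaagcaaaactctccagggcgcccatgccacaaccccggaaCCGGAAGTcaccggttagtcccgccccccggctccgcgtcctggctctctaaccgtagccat
Mrps11: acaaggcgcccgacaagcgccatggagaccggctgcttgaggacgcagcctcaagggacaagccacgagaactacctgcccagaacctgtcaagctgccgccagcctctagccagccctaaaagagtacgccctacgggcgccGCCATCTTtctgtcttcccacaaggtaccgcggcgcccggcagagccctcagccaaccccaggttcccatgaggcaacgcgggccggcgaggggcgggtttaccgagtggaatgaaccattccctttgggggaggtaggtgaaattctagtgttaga
Mrpl30: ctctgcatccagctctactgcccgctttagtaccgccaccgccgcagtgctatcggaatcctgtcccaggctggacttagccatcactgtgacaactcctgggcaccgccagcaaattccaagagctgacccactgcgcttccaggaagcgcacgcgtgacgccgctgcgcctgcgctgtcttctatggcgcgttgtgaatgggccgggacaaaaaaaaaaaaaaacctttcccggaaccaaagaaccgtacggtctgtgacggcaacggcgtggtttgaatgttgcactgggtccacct
The windows are chr10:95501900-95502199 on the minus strand for Mrpl42, chr19:6057706-6058005 on the minus strand for Mrpl49 and chr19:45006393-45006692 on the minus strand for Mrpl43. Those of Mrps11 and Mrpl30 are chr7:78782881-78783180 and chr1:37890227-37890526, both on the plus strand. The YY1 core begins 27 bases after the first transcribed base in Mrpl42 and 16 bases after it in Mrpl49, that is, inside the transcript. In Mrps11 it begins at position -107 and reads on the opposite strand, and in Mrpl43 the ETS/GABP core begins at position -12. The Mrpl30 window holds neither core.

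**Figure D2:**
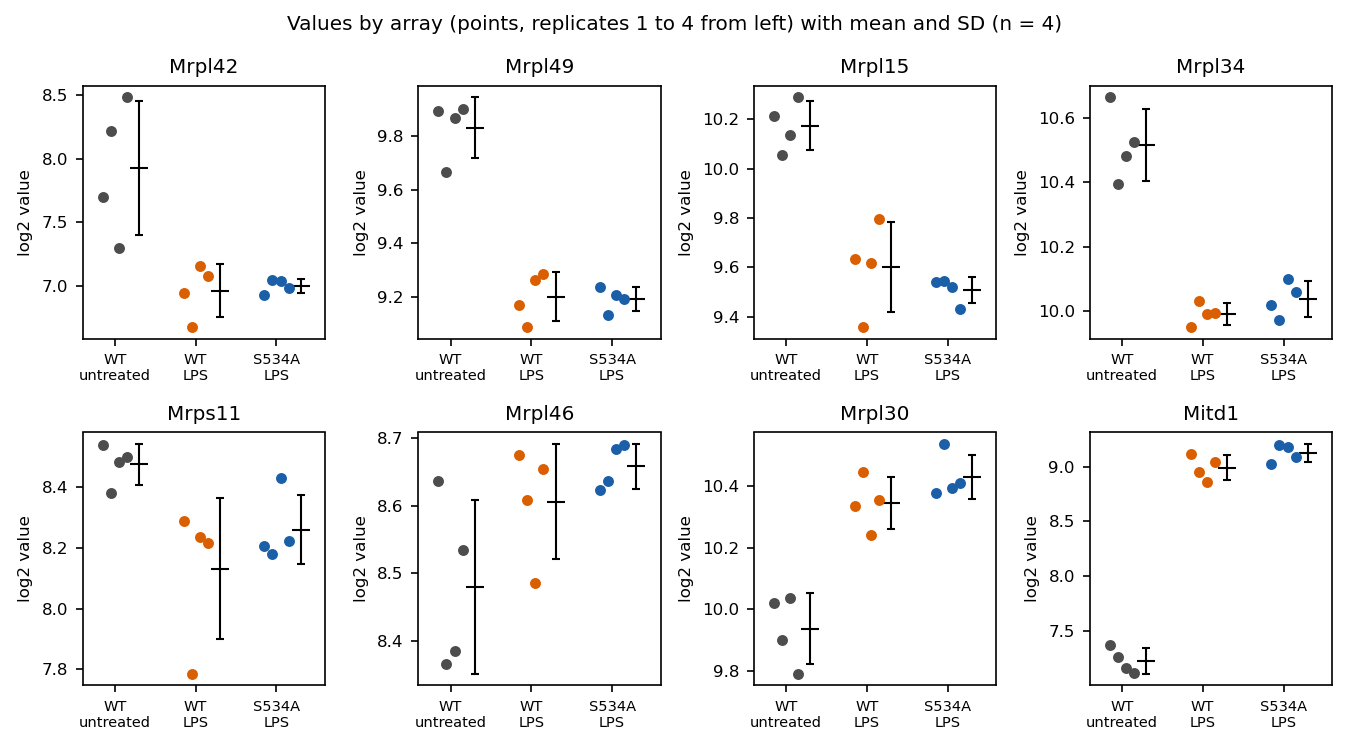
Log2 values (y axis) by array for 8 genes in the 3 groups (x axis). Points are the 4 arrays of a group, replicates 1 to 4 from left, with the mean and SD beside them. Mrpl42, Mrpl49, Mrpl15 and Mrpl34 show no overlap between untreated and LPS arrays, Mrpl30 and Mitd1 are higher in both LPS groups, and the WT LPS means of Mrps11 and Mrpl46 lie below and above their untreated means.

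Among the large subunit proteins with bacterial counterparts, 13 of 30 fell (43.3%) and 1 rose, with a median difference of -0.24. Of all genes 15.6% fell and 9.34% rose, and of the genes kept by the filter on dim genes 25.2% fell. Mrpl15 gave 10.21, 10.06, 10.14 and 10.29 in untreated livers and 9.63, 9.36, 9.62 and 9.80 in WT LPS livers, and the groups did not overlap. Its difference was -0.57 ± 0.09 (limma adjusted p = 0.00034). Mrpl34 gave 10.66, 10.40, 10.48 and 10.53 in untreated livers and 9.95, 10.03, 9.99 and 9.99 in WT LPS livers. It was the most even of the large falls after LPS, with an SD of 0.03 over the 4 WT LPS arrays and a difference of -0.53 ± 0.06 (limma adjusted p = 5.13e-05).

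Mrpl23, which lines the exit of the tunnel through which the new protein leaves, gave 11.02, 11.16, 10.80 and 11.12 untreated and 10.60, 10.22, 10.50 and 10.66 after LPS, a difference of -0.53 ± 0.10 (limma adjusted p = 0.00223). Its second probe set gave -0.50. Mrpl36 gave 10.07, 9.96, 9.79 and 9.86 untreated and 9.46, 9.09, 9.55 and 9.59 after LPS, a difference of -0.50 ± 0.11 (limma adjusted p = 0.00567). Neither gene's groups overlapped, and for both the lowest value was that of WT LPS replicate 2.

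The stalk of the large subunit, which recruits translation factors, is built from Mrpl10 and Mrpl12 on a base that includes Mrpl11, and 2 of these 3 genes fell. Mrpl11 gave 9.20, 9.18, 9.36 and 9.29 untreated and 8.94, 8.43, 8.90 and 8.95 after LPS, a difference of -0.45 ± 0.11 (limma adjusted p = 0.00687). Mrpl12 gave 10.40, 10.32, 10.32 and 10.22 untreated and 9.88, 10.17, 9.96 and 10.11 after LPS, a difference of -0.29 ± 0.07 (limma adjusted p = 0.00868). Both fell without overlap of the groups, although the call of Mrpl12 was lost without untreated livers 1 and 3 (-0.24, limma adjusted p = 0.066). Mrpl10 was at 10.75 ± 0.09 untreated and 10.75 ± 0.06 after LPS, with a 95% interval of the difference from -0.13 to 0.13.

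The other falls in this class were those of Mrpl2, Mrpl9, Mrpl18, Mrpl20, Mrpl28, Mrpl32 and Mrps18a. Mrps18a, which lies in the large subunit despite its symbol, gave 9.83, 9.80, 9.63 and 9.92 untreated and 9.40, 9.42, 9.45 and 9.66 after LPS. The highest WT LPS array overlapped the lowest untreated one, and the difference was -0.31 ± 0.08 (limma adjusted p = 0.00834). Its call was lost with fewer arrays, without the 3 with pancreas transcripts (-0.27, limma adjusted p = 0.113) and without untreated livers 2 and 4 (-0.25, limma adjusted p = 0.0763), while the difference moved by less than 1.5 times.

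Mrpl30 was the only gene of the family called higher in WT. Its values were 10.02, 9.90, 10.04 and 9.79 in untreated livers, 10.34, 10.45, 10.24 and 10.36 in WT LPS livers and 10.38, 10.54, 10.39 and 10.41 in S534A LPS livers. Every LPS array exceeded every untreated array. The WT difference was 0.41 ± 0.07 (1.33-fold, limma adjusted p = 0.000978), from 9.94 ± 0.11 to 10.34 ± 0.08 (SD, n = 4 each). All 4 WT LPS arrays lay above all 4 untreated arrays for 3 of the 77 genes, Mrpl30 among them, against 9.78% of all genes.

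Among the mitochondria-specific large subunit proteins, 5 of 20 fell (Mrpl40, Mrpl42, Mrpl43, Mrpl49 and Mrpl55), with a median of -0.10. That is 25%, against 15.6% of all genes and 25.2% of the genes kept by the filter on dim genes. The class was not recounted with that filter. Mrpl43 fell evenly, from 9.61, 9.46, 9.50 and 9.52 in untreated livers to 9.14, 9.08, 9.20 and 9.11 in WT LPS livers (-0.39 ± 0.05, limma adjusted p = 0.000181). The 3 genes with the smallest spread over the 12 arrays, Mrpl38, Mrpl39 and Mrpl58, belong to this class. Mrpl38 ran from 9.88 to 10.04 over the 12 arrays, Mrpl39 from 10.83 to 11.01 and Mrpl58 from 9.87 to 10.06. Mrpl58 is a peptidyl-tRNA hydrolase that became a fixed part of the subunit. Their WT differences were -0.05, -0.08 and -0.05, none of them called. Mrpl45, which anchors the ribosome to the inner membrane, was at 8.01 ± 0.11 untreated and 8.01 ± 0.14 after LPS, with a 95% interval of the difference from -0.17 to 0.17.

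In the small subunit, 7 of 17 proteins with bacterial counterparts fell (Mrps5, Mrps10, Mrps11, Mrps15, Mrps17, Mrps18c and Mrps21; median of the 17, -0.19) and 5 of 10 mitochondria-specific ones fell (Mrps27, Mrps33, Mrps34, Mrps35 and Mrps36; median -0.22). These shares are 41.2% and 50%. Counted by subunit, 12 of 27 small subunit genes (44.4%) and 18 of 50 large subunit genes (36%) fell, against 15.6% of all genes. Mrps36 gave 5.82, 5.90, 5.81 and 5.94 untreated and 5.44, 5.27, 5.38 and 5.45 after LPS. It fell by 0.48 ± 0.06 on the log2 scale (limma adjusted p = 9.04e-05) without overlap, and its second probe set gave -0.55. Its protein is now assigned to the oxoglutarate dehydrogenase complex and not to the ribosome. The small subunit counts that include Mrps36, 5 of 10 and 12 of 27, place it by its symbol.

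Mrps18a, Mrps18b and Mrps18c are related proteins derived from a single bacterial one. Mrps18c gave 9.39, 9.90, 9.15 and 9.38 untreated and 9.10, 8.86, 9.01 and 9.14 after LPS, a difference of -0.43 ± 0.13 (limma adjusted p = 0.0266) over a gap between groups that was narrower than either group's range. Its call was lost without WT LPS replicate 2 (-0.37, limma adjusted p = 0.0697), without WT LPS replicate 3 (-0.42, limma adjusted p = 0.0572) and without the 3 arrays with pancreas transcripts (-0.34, limma adjusted p = 0.235), with differences that moved by less than 1.5 times. Without untreated livers 2 and 4 it was smaller (-0.24, limma adjusted p = 0.108), and without untreated livers 1 and 3 it was -0.61 (limma adjusted p = 0.00522). Mrps18b gave 10.97, 10.83, 10.77 and 10.76 untreated and 10.74, 10.61, 10.77 and 10.86 after LPS, overlapping values with a 95% interval of the difference from -0.24 to 0.07. Mrps12, a protein of the decoding centre, was at 7.39 ± 0.20 untreated and 7.50 ± 0.09 after LPS and was not called (limma adjusted p = 0.46).

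Taking the 22 falls beside the 8 largest, differences ran from -0.17 to -0.44 with limma adjusted p-values up to 0.0467. In all, 25 of the 30 fell without overlap of the groups, and Mrpl20, Mrps17, Mrps18a, Mrps21 and Mrps27 fell with overlap. Second probe sets gave the sign of the one used for 6 of the 8 genes that have several. With adjustment over all probe sets that carry 1 symbol, Mrpl23, Mrps5 and Mrps36 were called lower on both of theirs. Mrps33 was called on the probe set used (-0.23, limma adjusted p = 0.0407) but not on its second (-0.16, limma adjusted p = 0.146). Mrpl51 (-0.19 and 0.11) and Mrpl41 (-0.11 and 0.03) had opposite signs, and neither was called.

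The count of falls depended on which arrays entered the fit, and leaving out any single array other than WT LPS replicate 1 lowered it, to between 21 and 27. WT LPS replicate 2 was the lowest of the 4 WT LPS arrays for 53 of the 77 genes (68.8%), against 37.7% of all genes, and without it 21 genes were called lower, where 13.6% of all genes were. Leaving out the 3 livers with pancreas markers above the others (replicates 2 and 3 of WT LPS, replicate 3 of S534A LPS), 14 genes were called lower, where 8.75% of all genes were. Without untreated livers 2 and 4 it was 19, of which 16 were among the 30, and 12.4% of all genes were. Fitting only the 2 groups compared gave 18, where 11.7% of all genes were. The share of all genes called fell in each of these fits too. All 30 differences stayed below 0 in each of these 4 fits. Across every alternative computed, 11 genes were called lower throughout: Mrpl11, Mrpl15, Mrpl23, Mrpl28, Mrpl34, Mrpl36, Mrpl42, Mrpl43, Mrpl49, Mrps5 and Mrps10. Mrps36, which the filter on dim genes removed, was called lower in all 22 other alternatives.

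**Figure D3:**
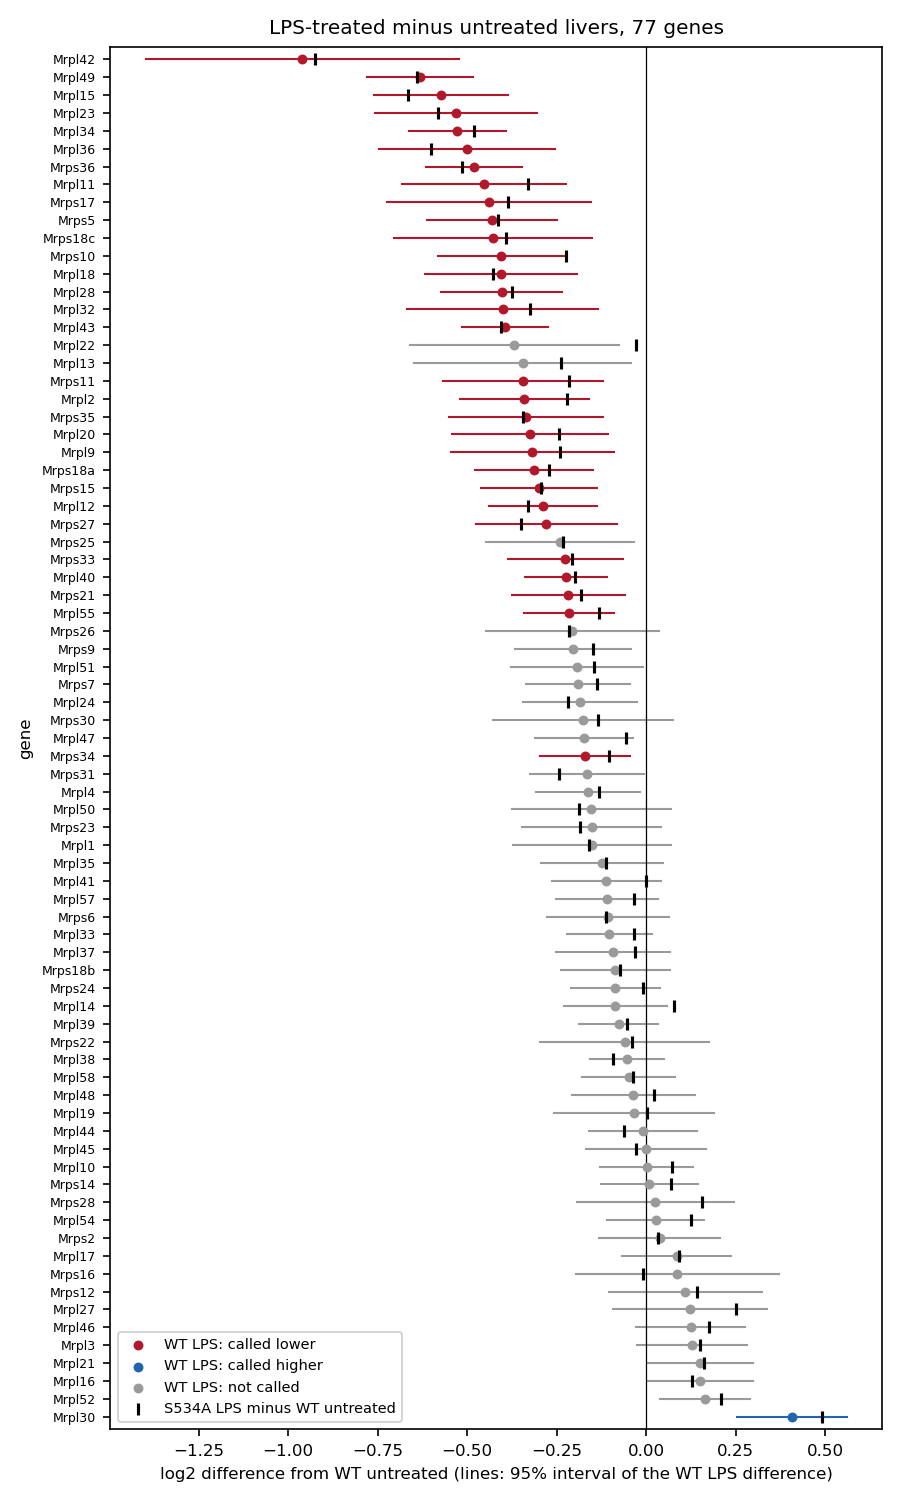
Log2 difference from WT untreated (x axis) for each of the 77 genes (y axis). Dots with 95% intervals are WT LPS minus WT untreated, red where called lower (30), blue where called higher (1) and grey where not called (46); black ticks are S534A LPS minus WT untreated, computed against the same untreated arrays. Ticks lie close to the dots for most genes, with Mrpl22 the widest apart.

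The comparison of S534A LPS with WT LPS livers asks whether the substitution alters the transcripts present after LPS. No mitochondrial ribosomal protein gene was called by limma in either direction (0 of 77), where 0.166% of all genes were called higher and 0.00502% lower. At an unadjusted p under 0.05 there were 3 of 77, against 5.76% of all genes, and no gene had groups that did not overlap, against 4.43% of all genes. With arrays weighted by quality, 1 gene (Mrpl14) was called higher (0.23, limma adjusted p = 0.0278), where 1.73% of all genes were. The median difference was 0.03, against 0.01 over all genes, and its sign was not stable. It was -0.0018 without WT LPS replicate 2 and -0.02 without the 3 arrays with pancreas transcripts.

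The precision bounds the genotype difference for most of the family. The 95% intervals of 76 of 77 genes lay within 0.5 log2 units of 0, that is, within 1.41-fold. Mrpl22, a protein of the exit tunnel, was the exception. It gave 7.59, 6.94, 7.63 and 7.43 in WT LPS livers and 7.90, 7.53, 7.74 and 7.78 in S534A LPS livers, overlapping values that differed by 0.34 ± 0.13 (interval 0.05 to 0.63, limma adjusted p = 0.696). Its lowest value was that of WT LPS replicate 2, and without that array the genotype difference was 0.19. In untreated livers it was 7.93, 7.67, 7.76 and 7.70, and the WT difference of -0.37 was not called (limma adjusted p = 0.0653). That difference was -0.22 without WT LPS replicate 2, and it was called in 4 other alternatives, with limma adjusted p-values from 0.0187 to 0.0474.

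The next smallest p-values for a higher level in S534A were those of Mrpl14 and Mrps10. Mrpl14 was at 9.50 ± 0.13 in WT LPS and 9.66 ± 0.07 in S534A LPS livers (0.16 ± 0.07, limma adjusted p = 0.74). Mrps10 was at 8.38 ± 0.16 and 8.56 ± 0.06 (0.18 ± 0.08, limma adjusted p = 0.833). On the lower side, Mrps31, Mrpl15 and Mrpl36 differed by -0.08 ± 0.07, -0.09 ± 0.09 and -0.10 ± 0.11. The 2 genes with the largest response to LPS were close in both genotypes, with differences of 0.03 ± 0.20 for Mrpl42 and -0.01 ± 0.07 for Mrpl49.

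Against the same untreated WT livers, S534A LPS livers had 22 of the 77 genes lower and 2 higher, where 16% of all genes were lower and 11% higher. Because both LPS groups are set against the same 4 untreated arrays, these values are not independent of those for WT. All 22 falls were without overlap, with a median of -0.39 and a range from -0.20 to -0.93. All 4 S534A LPS arrays lay below all 4 untreated arrays for 27 of the 77 genes, against 17.5% of all genes. Mrpl42 differed by -0.93 ± 0.20 (limma adjusted p = 0.00391) where WT LPS gave -0.96, Mrpl15 by -0.66 ± 0.09 where WT gave -0.57, and Mrpl49 by -0.64 ± 0.07 where WT gave -0.63.

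The 2 that rose were Mrpl30, by 0.49 ± 0.07 (limma adjusted p = 0.000186), and Mrpl52, a mitochondria-specific large subunit protein, by 0.21 ± 0.06 (limma adjusted p = 0.0155). Mrpl52 gave 9.90, 9.84, 9.96 and 9.75 untreated, 10.01, 10.03, 10.02 and 10.05 in WT LPS and 10.10, 10.13, 10.05 and 10.01 in S534A LPS livers. Both LPS groups lay above all untreated arrays, and the WT difference of 0.16 just missed the call (limma adjusted p = 0.0536).

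Of the 32 genes called lower in either LPS group, 20 were called in both. The 10 called in WT alone (Mrpl2, Mrpl9, Mrpl20, Mrpl32, Mrpl55, Mrps10, Mrps11, Mrps21, Mrps33 and Mrps34) differed by -0.32 to -0.10 in S534A, with limma adjusted p-values from 0.0571 to 0.228. The 2 called in S534A alone were Mrpl24 (-0.22 ± 0.07) and Mrps31 (-0.24 ± 0.07). Membership of these sets depended on the fit. Of 23 alternatives, the S534A call of Mrps31 was lost in 9, and Mrps10 gained one in 4. Among the 20 called in both, Mrpl11 lost its S534A call in 8 and Mrps18c in 12. The direct genotype comparison called none of these genes.

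Other genes of mitochondrial translation were read from the same fits. Of 4 measured mitoribosomal proteins with other symbols, the pentatricopeptide protein Ptcd3 (-0.49 ± 0.14, limma adjusted p = 0.0184) and Chchd1 (-0.33 ± 0.11, limma adjusted p = 0.044) fell. Of 14 translation factors 6 fell (42.9%, against 15.6% of all genes), with a median of -0.25. Oxa1l, which inserts new proteins into the inner membrane, fell from 10.80 ± 0.07 to 10.35 ± 0.07 (-0.45 ± 0.06, limma adjusted p = 9.49e-05), with all WT LPS arrays below the untreated ones. The initiation factors Mtif3 (-0.49 ± 0.10) and Mtif2 (-0.55 ± 0.12) fell too, with limma adjusted p-values of 0.00414 and 0.00483.

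The next 3 lists had shares of falling genes nearer to the 15.6% of all genes: 22.2% for assembly and ribosomal RNA factors, 18.8% for aminoacyl-tRNA synthetases and 23.1% for mitochondrial DNA expression. Among the 11963 genes kept by the filter on dim genes 25.2% fell, and the lists of other genes were not recounted with that filter. Of 27 assembly and ribosomal RNA factors 6 fell (median -0.05). The pseudouridine synthase Rpusd3 fell by 0.70 ± 0.09, the small subunit assembly factor Rbfa by 0.50 ± 0.08 and the large subunit GTPase Mtg1 by 0.49 ± 0.11, in log2 units. Of 16 mitochondrial aminoacyl-tRNA synthetases 3 fell and 1 rose (median -0.04); Mars2, which charges methionine tRNA, rose by 0.28 ± 0.07, while Vars2 and Fars2 fell by 0.24 ± 0.07 and 0.31 ± 0.10. Of 13 genes of mitochondrial DNA maintenance and transcript handling 3 fell and 1 rose (median -0.04). Polg2, a subunit of the mitochondrial DNA polymerase, fell by 0.71 ± 0.10. Hsd17b10, a subunit of mitochondrial RNase P, fell by 0.26 ± 0.07, and the RNA-binding protein Slirp rose by 0.31 ± 0.07.

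Among 13 regulators of nuclear mitochondrial genes 4 fell (30.8%) and 2 rose, where 15.6% of all genes fell and 9.34% rose. Not called were Nrf1 (0.20 ± 0.11), Gabpa (-0.16 ± 0.13), Yy1 (-0.24 ± 0.12) and Myc (-0.65 ± 0.40). Their limma adjusted p-values ran from 0.183 to 0.427. The coactivators Ppargc1b and Ppargc1a fell by 1.03 ± 0.15 (limma adjusted p = 0.000205) and 1.00 ± 0.21 (limma adjusted p = 0.00347), and the nuclear receptor Esrra by 0.45 ± 0.08 (limma adjusted p = 0.000992). For Ppargc1a, WT LPS replicate 1 stood at 8.48 and the other WT LPS livers at 7.33, 7.69 and 7.23, against 8.55 to 8.85 in untreated livers. Mxd1, a partner of Max that opposes Myc, rose by 1.37 ± 0.12 in WT (limma adjusted p = 2.9e-06). It was also the only regulator on this list called between genotypes, 1.17 ± 0.12 higher in S534A LPS than in WT LPS livers (limma adjusted p = 0.00191).

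As a reference, 9 of 59 cytosolic ribosomal protein genes (15.3%) fell and 2 rose, with a median of -0.04. Every WT LPS array lay below every untreated array for 17 of the 59, against 14.9% of all genes. The reverse held for 3 of the 59, against 9.78% of all genes. The respiratory chain list, which by its symbols also holds 11 assembly factors, had 28 of 93 genes falling (30.1%) with a median of -0.14. Its 3 smallest p-values were those of the complex II assembly factor Sdhaf1 (-0.82 ± 0.10), the complex I subunit Ndufa6 (-0.49 ± 0.06) and the ATP synthase subunit Atp5h (-0.43 ± 0.06). Whether these lists differ from the mitochondrial ribosomal protein genes was not tested. Mitochondrially encoded transcripts were not analysed here.

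**Figure D4:**
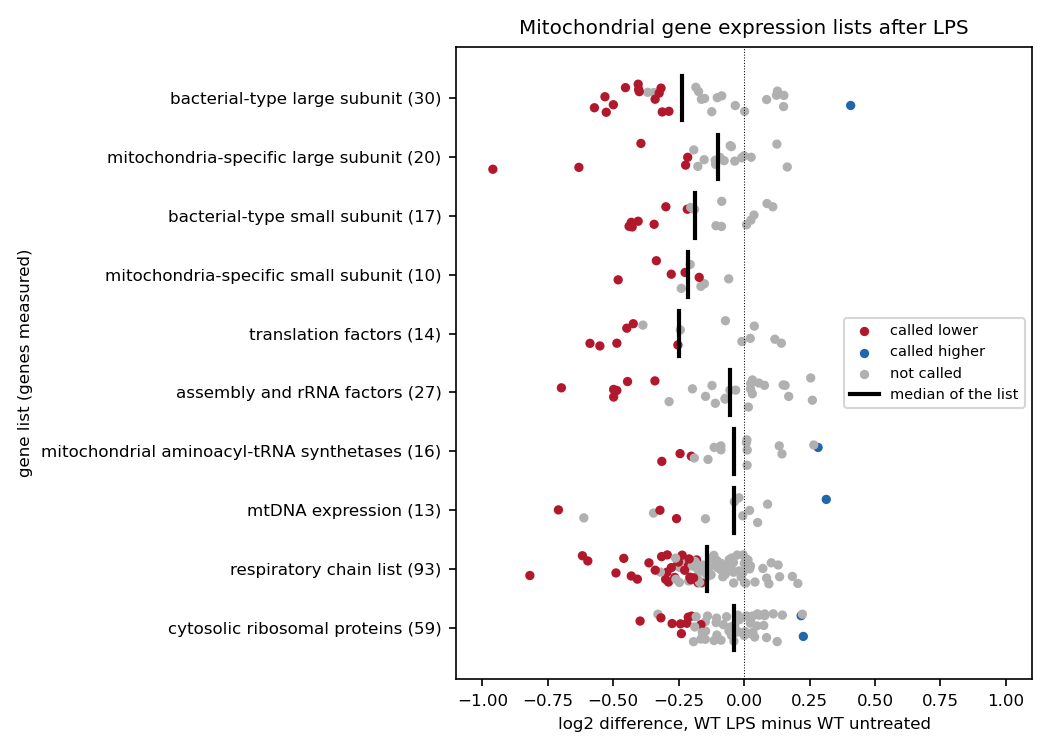
Log2 difference, WT LPS minus WT untreated (x axis), for each gene of 10 lists (y axis, genes measured in brackets). Points are genes, coloured by the limma call, with vertical jitter for visibility; black bars are list medians. The medians of the 4 ribosomal classes run from -0.24 to -0.10 and that of the cytosolic ribosomal proteins is -0.04.

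RefSeq promoter windows matched 68 of the 77 genes, with 74 windows of 300 bases. Motifs of 4 factors known to act on nuclear mitochondrial genes were searched as exact letters on both strands. The YY1 core AAGATGGC was present for 12 genes (17.6%), against 3.6% of 17492 protein-coding genes. The ETS/GABP core CCGGAAGT was also present for 12 (17.6%, against 5.7%) and the NRF1 core GCATGCGC for 8 (11.8%, against 3.9%). The E-box CACGTG was present for 5 (7.4%, against 8.9%). Median GC content was 58.5% in the windows of the family and 56.3% in all windows.

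Of the 27 matched genes that fell, 7 held the YY1 core (Mrpl32, Mrpl36, Mrpl42, Mrpl49, Mrps11, Mrps18a and Mrps27), 4 the ETS/GABP core, 2 the NRF1 core and 4 the E-box. Of the 41 other matched genes, 5, 8, 6 and 1 did, in the same order. A match is a description of these letters and shows neither binding nor a cause.

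Mitochondrial ribosomal protein genes often start next to a gene on the other strand. A protein-coding gene starting within 1000 bases, head to head, was found for 24 of the 68 matched genes (35.3%), against 8.5% of all protein-coding genes, and the partner was measured for 23. Mrpl30 has such a partner in Mitd1, whose product acts in the last step of cell division, with 66 bases between their starts. Mitd1 gave 7.37, 7.26, 7.16 and 7.11 in untreated livers, 9.12, 8.95, 8.86 and 9.04 in WT LPS livers and 9.02, 9.20, 9.18 and 9.09 in S534A LPS livers. It rose in WT by 1.77 ± 0.08 (3.41-fold, limma adjusted p = 3.08e-09). Both genes of this pair, the only gene of the family called higher in WT and its neighbour, were thus higher on every LPS array.

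The other pairs were mixed. Mrpl43 and the mitochondrial DNA helicase gene Twnk, 116 bases apart, both fell (Twnk by 0.32 ± 0.10, limma adjusted p = 0.0348), as did Mrpl2 with Klc4 and Mrps27 with Ptcd2. Mrpl49 fell, while Fau, which encodes a cytosolic ribosomal protein fused to a ubiquitin-like one and starts 192 bases away, differed by -0.13 ± 0.05 without a call (limma adjusted p = 0.0736). Mrpl46 and Mrps11, both of the family and 42 bases apart, had different calls, and their differences were not tested against each other. Mrps11 went from 8.54, 8.38, 8.48 and 8.50 to 8.29, 7.79, 8.24 and 8.21 and fell (-0.34 ± 0.10, limma adjusted p = 0.0265). Mrpl46 went from 8.64, 8.37, 8.39 and 8.53 to 8.68, 8.61, 8.49 and 8.65 and was not called (0.13 ± 0.07, limma adjusted p = 0.226). Of the 23 genes with a measured partner, 1 rose with its partner, 3 fell with theirs and 6 fell with the partner not called. Another 4 were not called beside a partner that fell, 1 was not called beside a partner that rose (Mrps7 beside Gga3, 0.46 ± 0.10), and for 8 neither was called. Mrpl46 and Mrps11 count here as 2 genes, each the other's partner.

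**Figure D5:**
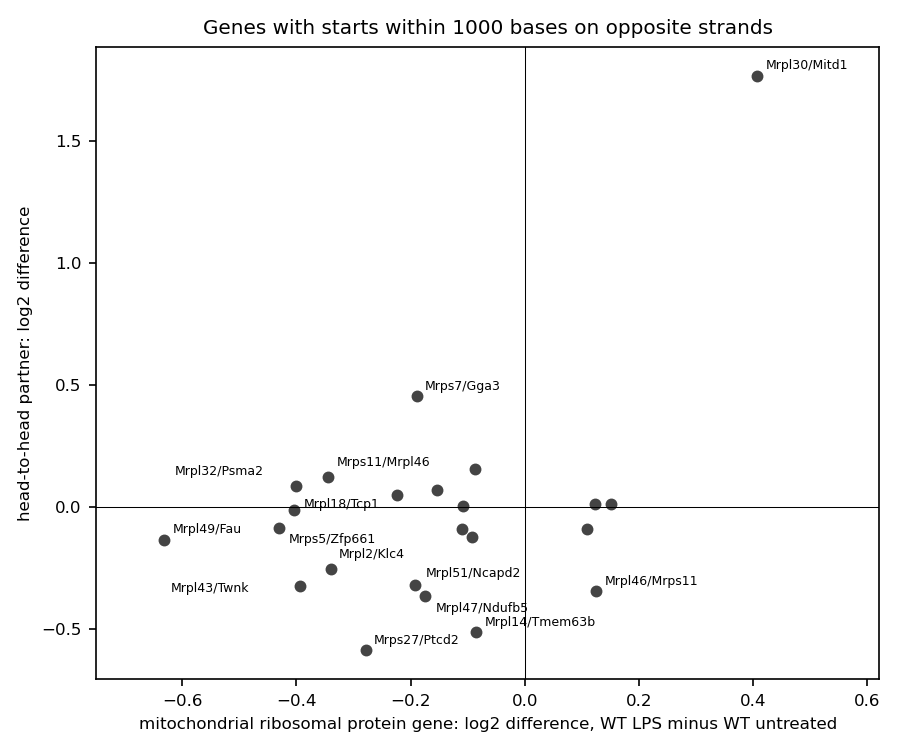
Each point is a mitochondrial ribosomal protein gene with a head-to-head partner starting within 1000 bases on the opposite strand. The x axis gives its log2 difference, WT LPS minus WT untreated, and the y axis that of the partner; pairs with a difference beyond 0.3 in size are labelled. The pair of Mrpl30 and Mitd1 lies alone at the upper right, at 0.41 and 1.77.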

How the data were processed

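The authors deposited log2 values made with RMA, per the submitters' processing notes. RMA corrects background, equalises the arrays' distributions and sums up probes, and tends to compress folds. No version or annotation build was stated. Of 35556 probe sets, 21789 carried 1 symbol, 1621 several and 12146 none; the last 2 kinds were left out. The 3 groups entered a single linear model (limma 3.58.1, R 4.3.3; lmFit, eBayes) on all 12 arrays (9 residual and 3.54 prior degrees of freedom), two-sided, with Benjamini-Hochberg adjustment over 19938 genes and a threshold of 0.05. Array medians ran from 6.15 to 6.32; precision is limited by 4 arrays per group, and p-values measure the spread between these livers. The fit was tested on simulated data.

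The genes and lists were chosen with earlier results of these data known. Genes named singly followed a rule: up to 8 of the largest called differences per direction without overlap, the smallest p-values between genotypes, the extremes of spread, Mrps18a to Mrps18c, Mrps12, Mrpl10, Mrpl11, Mrpl12, Mrpl45 and Mrpl58, and the smallest p-values of each other list. Ppargc1a, Mrpl24, Mrpl41, Mrpl43, Mrpl51, Mrpl46, Mrps11, Mrpl52, Mitd1 and the other partner genes were named after their values were seen. So were Nrf1, Gabpa, Yy1 and Myc, and Mrps33 for its probe sets. Several probe sets of a gene may read near-identical copies. Alternatives covered left-out arrays, probe set choice, dim genes, fit settings, scaling and the replicate block. RefSeq windows were joined by Entrez gene ID.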

Additional observations from a re-analysis of the deposited data

Results flagged for a closer look

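Groups of 4 arrays were examined for 55 genes whose values are given above and for the mean and median of the family, 171 groups in all. Nrf1, Gabpa, Yy1, Myc and Mrps33 were not among the 55. In 10 of them 1 array stood apart from the other 3 by more than Dixon's 95% critical value allows; chance alone gives this in about 1 in 20 groups. In untreated livers, Mrpl49 was at 9.66 in liver 2 and between 9.87 and 9.90 in the others, and Mrps12 was at 7.10 in liver 4 and between 7.47 and 7.51 in the others. Atp5h was at 11.95 in untreated liver 2 and between 11.86 and 11.87 in the others. On WT LPS replicate 2, an array with pancreas transcripts, Mrpl11 was at 8.44 and Mrps11 at 7.79, against 8.90 to 8.95 and 8.21 to 8.29 on the other WT LPS arrays. Vars2 was at 8.13 on WT LPS replicate 4 and between 8.30 and 8.34 on the others. On S534A LPS replicate 3, also with pancreas transcripts, Mrps11 was at 8.43 and Mrpl24 at 9.32, against 8.18 to 8.22 and 9.40 to 9.42 on the other S534A LPS arrays. On S534A LPS replicate 1, Mrps18c was at 8.97 and Mxd1 at 10.19, against 9.09 to 9.10 and 10.51 to 10.57 on the others.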

How the results depend on the processing

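In WT LPS against untreated liver, 30 genes were called lower and 1 higher. Leaving out 1 array gave 21 to 30 lower and 1 to 2 higher. Fitting only the 2 groups compared gave 18 lower. Of the alternatives chosen after seeing the data, dropping the 3 arrays with pancreas transcripts gave 14, dropping untreated livers 2 and 4 gave 19 lower, and dropping untreated livers 1 and 3 gave 3 higher. Repeated quantile normalisation gave 3 higher. The cause of these changes was not tested. Most of these fits also used fewer arrays, and the part of that was not tested either. In S534A LPS against WT LPS, array weights gave 1 gene higher in place of 0. In S534A LPS against untreated liver, 22 lower and 2 higher became 15 to 25 and 1 to 3 when 1 array was left out (1 higher without S534A LPS replicate 2), and 4 higher with array weights and with repeated quantile normalisation. Member medians kept their sign against untreated liver under every alternative, from -0.21 to -0.12 for WT LPS, while that between genotypes ran from -0.02 to 0.05. Of the 30 falls, 19 were called in all 12 fits without 1 array, and none turned above 0 where tested (Mrps36 was not tested with the filter on dim genes). Of 1538 values recomputed for the named genes, 39 lost and 10 gained a call, 17 of the 39 for Mrps18c, and 0 reversed. With the replicate number as a block, 27 genes were lower in WT LPS. Deviations from the group means correlated from -0.27 to 0.22 between same-numbered arrays, so the numbers were not taken to pair the livers. Differences near 0.2 in log2 units are at the limit of 4 arrays per group.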
